A study of Caenorhabditis elegans with 2 samples.

Results

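The genes described are 10 forkhead transcription factor genes of Caenorhabditis elegans, taken by name from a list of 15 forkhead genes of the worm. They are fkh-10, daf-16, fkh-9, fkh-2, fkh-3, fkh-7, fkh-8, unc-130, pha-4 and let-381, 10 of the 19973 genes that code for protein outside the mitochondrial genome. Each received the ChIP-seq summits that lay within 5 kb of its annotated 5' end on either side, or inside the gene, with all positions on build ce11 (WBcel235). The chromatin came from whole worms at the third larval stage (L3), of strain OP337, and the protein labelled as the target was FKH-10, itself a forkhead factor. OP337 is labelled with the allele unc119(ed3) and the transgene wgIs377, which carries fkh-10 joined to the tags TY1, EGFP and FLAG, together with unc119 as its marker. The animals were of mixed sex and of unstated age, and the labels do not name the promoter or the cells in which the tagged protein was made. Both libraries belong to this 1 group, as biological replicates 1 and 2, and the lists were called against a control alignment that was not analysed here. The sequence of the copy in the transgene was not examined. Where it equals that of the endogenous gene, reads from either cannot be told apart.

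Forkhead factors bind DNA through a winged helix domain, and the family is known for setting the fate of cells and organs and for adjusting physiology to food and stress. DAF-16, the FOXO factor of the worm, is held in the cytoplasm by insulin-like signalling and acts in longevity, stress resistance and entry into dauer. PHA-4, of the FoxA class, specifies the pharynx, and FKH-8 acts in the ciliated sensory neurons. What the lists show here is where FKH-10 chromatin was enriched at the genes of its own family, a description with no contrast between conditions.

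Of the 10 genes, 3 held a thresholded summit, namely daf-16, fkh-9 and fkh-7, with 6 such summits in all. The thresholded list was derived by the irreproducible discovery rate, a measure of how reproducibly regions rank. Its 2005 peaks were the 2005 strongest regions of the pooled list, at the same positions and with the same signal values. Of the forkhead genes 30% held a thresholded summit (3 of 10, exact Clopper-Pearson 95% interval 6.67% to 65.2%, which covers counting error only), against 15.6% of all protein-coding genes under the same rule. The interval holds the share of all genes. Long genes have longer windows, and the 3 genes with a thresholded summit were among the 4 forkhead genes with windows over 12 kb. Of all genes with such windows 29.6% held a thresholded summit, and of those with windows of 12 kb or less 14.2% did. None of the 6 forkhead genes with the shorter windows held one.

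In the unthresholded pooled list of 30000 regions, 9 of the 10 genes held a summit, against 92.4% of all protein-coding genes. This list contains background by its making, so a summit in it alone is weak evidence of enrichment. The forkhead windows held 60 pooled summits. The median was 3 per gene, as over all genes, and 0.30 per kb of window, also as over all genes. The spread within the family was wide, between 0 at fkh-10 and 23 at daf-16. Of the 60 summits, 34 lay in introns, 19 between genes, 4 in coding exons, 2 in 5' UTRs and 1 in a 3' UTR, where all pooled summits had 34.9% in introns, 42.2% between genes and 17.6% in coding exons. The long genes daf-16 and fkh-7 gave 19 and 9 of the intronic summits, and at the other 8 genes 6 of 24 summits (25%) were intronic. The signal is the value the authors' caller gave each region, with a scaling that is not stated, and it ran from 28.2 to 182 in the thresholded list and from 6.91 to 182 in the pooled list. The number of reads in each library is unknown.

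**Figure D1:**
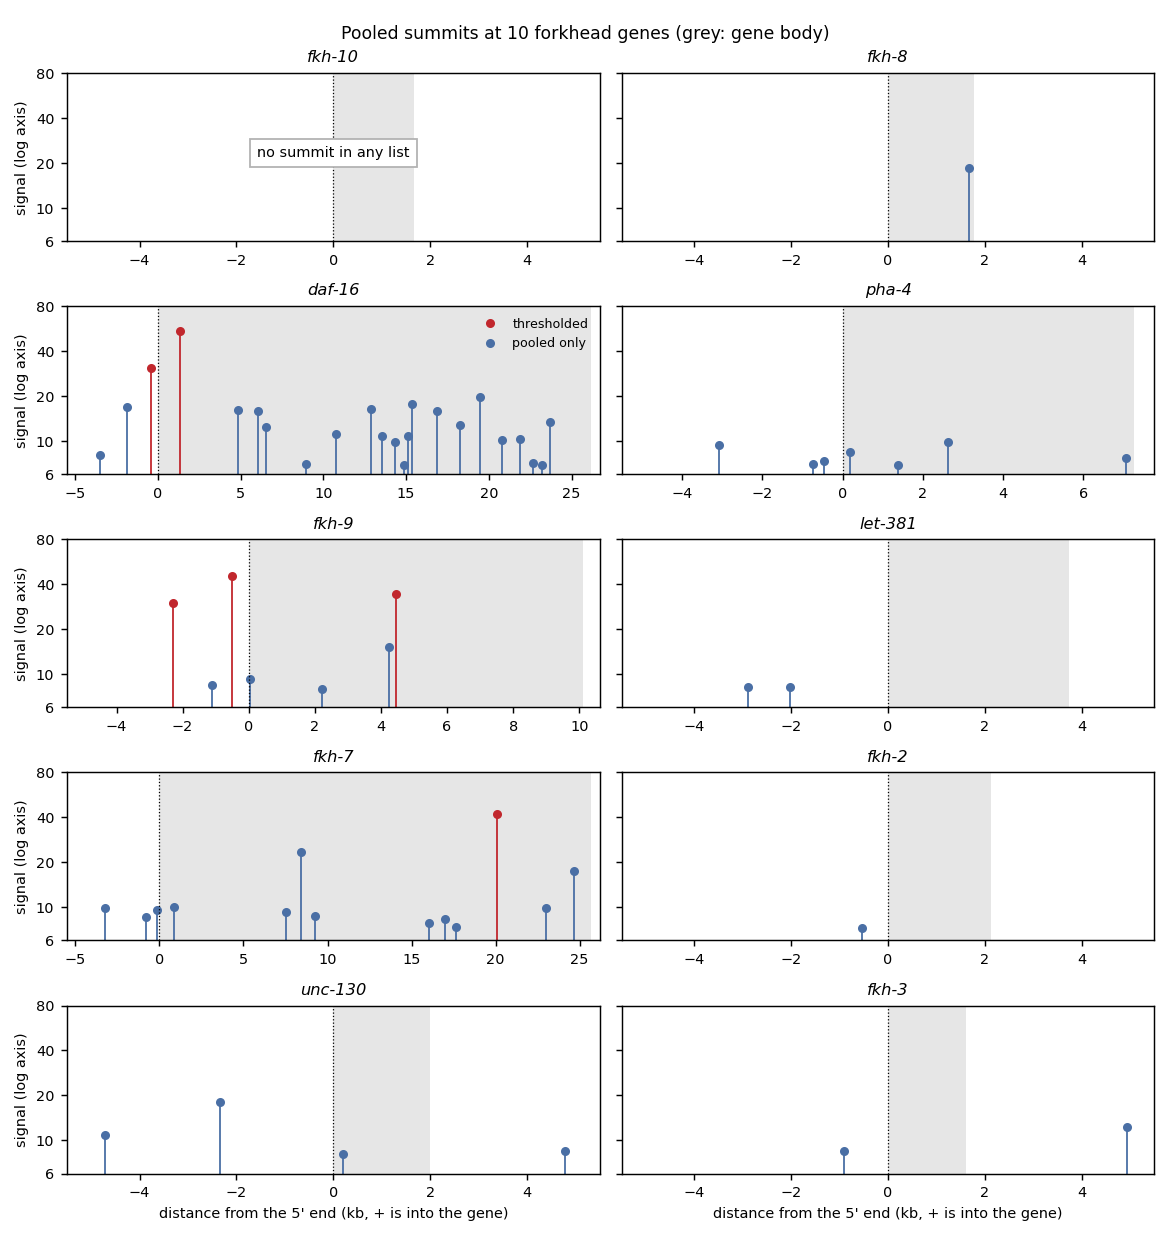
Signal of each pooled summit (vertical log axis, units of the authors' caller) against its distance from the gene's 5' end in kb, 1 panel per gene, with the gene body in grey, thresholded summits in red and other pooled summits in blue. The 6 red summits lie at daf-16, fkh-9 and fkh-7, and the panel of fkh-10 is empty.

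No list held a summit at the gene of the tagged protein, fkh-10 (WBGene00001442), which lies on the minus strand of chromosome I between 10163475 and 10165132. Its window contained 0 thresholded, 0 pooled, 0 replicate 1 and 0 replicate 2 summits. Of all protein-coding genes, 301 (1.51%) had no summit in any of the 4 lists. The distance to the nearest thresholded summit, 31988 bp, was an ordinary one, since 41.8% of genes lay at least as far from theirs and the median was 24584 bp. What fkh-10 lacked beside most genes was the weak regions of the unthresholded lists.

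The empty stretch around fkh-10 was long in each library. Neighbouring summits enclosed it at a distance of 55930 bp in replicate 1, 64325 bp in replicate 2 and 59142 bp in the pooled list, where the median stretch was 2104 bp. The pooled stretch ran from 38297 bp downstream of the fkh-10 5' end, at a summit in a coding exon of rbm-12, to 20845 bp upstream, at a summit in a coding exon of rsa-1. Both edges were weak regions, with signals of 10.2 and 11.5. The 5' ends of 15 protein-coding genes lay inside, fkh-10 included, and the nearest to its own were those of C25A1.1 at 2757 bp on the downstream side and sup-46 at 7471 bp on the upstream side. Stretches at least as long held the 5' ends of 101 genes in the pooled list, 0.506% of all protein-coding genes.

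The share of unique sequence was higher in this stretch than in the 4 other pooled stretches as long. Of its 50-base words, 92.7% occurred at a single place in the WBcel235 genome on either strand, against 93.5% of those of the 6 nuclear chromosomes. The 5 pooled stretches of that length or longer included 4 others, on chromosomes IV, V and X, where 30.8%, 5.79%, 12.2% and 53.0% of words were unique. Among stretches with at least 90% unique words, a limit chosen after these values were seen, the one holding fkh-10 was the longest in all 3 lists. The next longest were 45354 bp in replicate 1, 44814 bp in replicate 2 and 47389 bp in the pooled list. Within the fkh-10 window itself 99.2% of words were unique, and within the gene all were. Copies of the fkh-10 region in the strain or in the control were not measured, and their part in the missing regions was not tested.

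**Figure D2:**
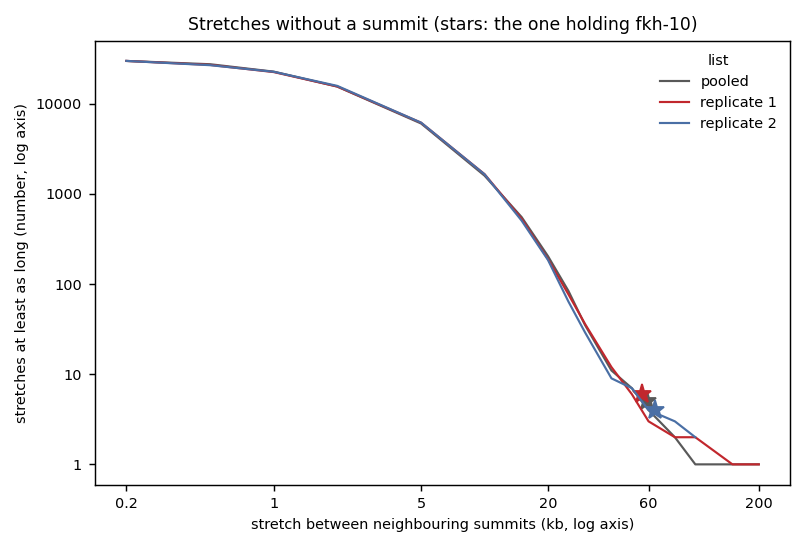
Number of stretches between neighbouring summits that are at least as long as the length on the horizontal axis (kb), for the pooled list and each replicate, both axes logarithmic. Stars mark the stretch that holds fkh-10, at 59142 bp in the pooled list, 55930 bp in replicate 1 and 64325 bp in replicate 2, where only 4 to 6 stretches are as long.

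The gene daf-16 (WBGene00000912, chromosome I, 10750498 to 10776703, plus strand) held the most regions of the family in the pooled list and in each replicate. It also held the strongest region of the family in the pooled list and in replicate 1. In replicate 2 the strongest was at fkh-9 (signal 26.0, rank 391). The strongest peak of daf-16 (10751641 to 10752004) had a signal of 36.0 in replicate 1, 20.2 in replicate 2 and 55.03 in the pooled list. These placed it at rank 411 of replicate 1, 810 of replicate 2 and 488 of the pooled list. The summit lay in an intron, 1325 bp downstream of the gene's 5' end and 863 bp downstream of the start of the transcript R13H8.1d.1. The second thresholded peak (10749881 to 10750244) lay upstream, 435 bp from the 5' end, where 2 non-coding RNA genes, H36N01.1 and H36N01.4, are annotated. Its signal was 17.0 in replicate 1, 13.7 in replicate 2 and 30.9 in the pooled list, at ranks 2104, 1737 and 1734. The 2 peaks lay on either side of the outermost of the 7 transcript starts annotated for the gene.

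The remaining 21 pooled regions of daf-16 lay below the thresholded list and were spread over the gene and its upstream side. The window held 18 summits of replicate 1, 23 of replicate 2 and 23 of the pooled list, 19 of the pooled ones in introns. Beyond the 2 thresholded summits, pooled signals ran from 6.92 to 19.9, with 16 of the 21 above the median of the pooled list, 9.89, and 7 above 15. Only 14 genes of 19973 had as many pooled summits, and 1.38% had as many per kb (0.74 per kb of window). In the 50 kb on either side of the window the density was 0.28 per kb, beside 0.30 per kb over the nuclear chromosomes. Among the 137 genes with windows over 25 and up to 35 kb, daf-16 included, 2 had at least 23 pooled summits and the median was 9. Of the 23 regions, 14 were overlapped in both replicates, 3 in replicate 1 alone, 5 in replicate 2 alone and 1 in neither. Over all pooled regions 36.8% were overlapped in both. Some neighbouring pooled regions of daf-16 were overlapped by the same replicate region, so the matches were not all separate. Taking the 2005 strongest regions of a single replicate in place of the thresholded list, daf-16 held 1 in replicate 1 and 3 in replicate 2. A further thresholded peak lay 825 bp beyond the end of the gene, outside the window (10777346 to 10777709, signal 36.2, rank 1312 of replicate 1 and 1223 of replicate 2).

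**Figure D3:**
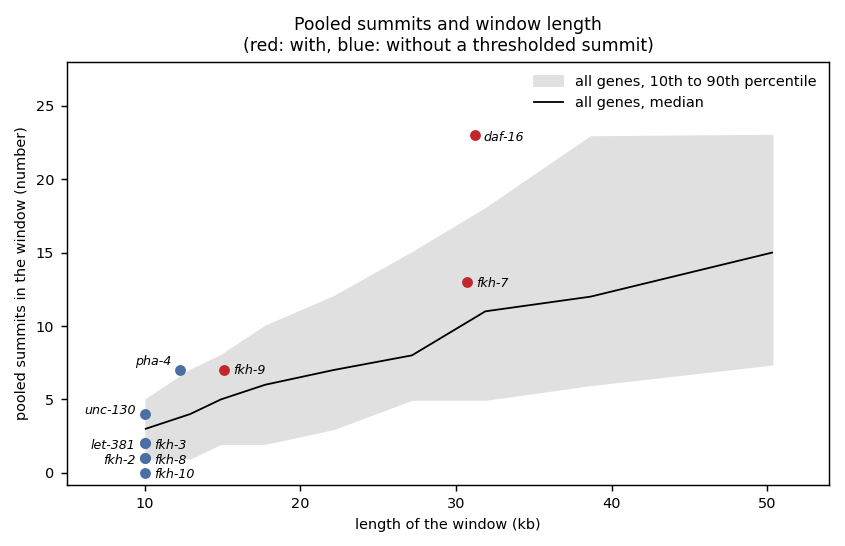
Pooled summits per window against window length in kb for the 10 forkhead genes (red with and blue without a thresholded summit), with the median (line) and the 10th to 90th percentile (grey band) of all protein-coding genes of like window length. At 23 summits daf-16 lies above the band, and fkh-7 at 13 lies within it.

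The gene fkh-9 (WBGene00001441, chromosome X, 3816847 to 3826963, minus strand) encodes a forkhead factor known for its part in axon regeneration, and it held 3 thresholded summits, the most of the family. Of all protein-coding genes 0.691% held 3 or more, a share not matched for window length, and the fkh-9 window measured 15.1 kb. The lead of fkh-9 depended on the rule. With 5 kb of any transcript start, or with the 2005 strongest regions of replicate 2, daf-16 and fkh-9 each held 3. With 1 kb in place of 5 kb each held 2. With the 2005 strongest regions of replicate 1, fkh-9 held 2 and daf-16 held 1. The strongest peak (chrX:3827293-3827656) lay between genes, 512 bp upstream of the 5' end, where the non-coding RNA gene K03C7.7 is annotated. Its signal was 19.0 in replicate 1, 26.0 in replicate 2 and 45.3 in the pooled list, at ranks 1777, 391 and 830. The intronic peak (chrX:3822331-3822694) lay 4450 bp downstream of the 5' end and 1941 bp upstream of the start of the transcript K03C7.2c.3, with signals of 20.3 in replicate 1, 16.5 in replicate 2 and 34.6 in the pooled list. The distal upstream peak (chrX:3829083-3829446), 2302 bp from the 5' end, was the weakest, at 13.4 in replicate 1, 15.9 in replicate 2 and 29.96 in the pooled list. It lay at rank 3232 of replicate 1 and 1317 of replicate 2, so that replicate 2 alone placed it among its 2005 strongest regions. Within the gene start itself, 32 bp downstream of the 5' end, the pooled list held only a region with a signal of 9.33, which neither replicate's list overlapped.

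The 3 summits of fkh-9 differ in sequence, and their surroundings are shown because this gene carried the most thresholded summits. Each line gives 101 bases centred on the summit, read 5′ to 3′ on the plus strand of WBcel235 (RefSeq), opposite to the direction of the gene. Capitals mark AAGAAGA and GACGC on either strand, 2 motifs searched because earlier results of these data had named them.
fkh-9, 512 bp upstream (chrX:3827425-3827525): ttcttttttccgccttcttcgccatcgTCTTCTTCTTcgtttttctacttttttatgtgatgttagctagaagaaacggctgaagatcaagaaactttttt
fkh-9, 2302 bp upstream (chrX:3829215-3829315): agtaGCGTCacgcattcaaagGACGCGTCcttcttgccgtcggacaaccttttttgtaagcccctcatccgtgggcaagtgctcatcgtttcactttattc
fkh-9, 4450 bp downstream (chrX:3822463-3822563): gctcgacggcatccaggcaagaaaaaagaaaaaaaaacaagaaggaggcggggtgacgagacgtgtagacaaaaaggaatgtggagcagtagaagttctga
The proximal window held 2 overlapping matches to AAGAAGA, a motif found in 15.2% of all thresholded windows and 5.20% of all pooled windows. The distal window held 3 matches to GACGC, 2 of them overlapping, and 20.3% of thresholded and 8.41% of pooled windows held that motif. The intronic window held neither. None of the 3 held a forkhead core. Over the family, each of the 2 motifs was held by 1 of the 6 thresholded windows, near the share of all thresholded windows. The motifs were named from these same data, so their higher share in thresholded than in pooled windows is no independent support.

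The gene fkh-7 (WBGene00001439, chromosome IV, 5584684 to 5610378, plus strand), which encodes a factor of the FoxP class, held 1 thresholded summit, deep inside the gene. The peak (chrIV:5604577-5604940) lay in an intron 20075 bp downstream of the 5' end and 1471 bp upstream of the start of the transcript F26D12.1e.1. Its signal was 26.6 in replicate 1, 15.1 in replicate 2 and 42.4 in the pooled list, at ranks 940, 1459 and 970, so that it lay among the 2005 strongest regions of either library. A second intronic region, 8408 bp downstream of the 5' end, was the strongest of the family left out of the thresholded list, with a signal of 15.4 in replicate 1, 8.44 in replicate 2 and 23.3 in the pooled list (ranks 2460, 5027 and 2662). Around the gene's own 5' end the pooled signals were low, at 8.60 for the summit 782 bp upstream, 9.63 at 124 bp upstream and 10.1 at 895 bp downstream. The window held 14 summits of replicate 1, 13 of replicate 2 and 13 of the pooled list, and 37 of the 137 genes with windows over 25 and up to 35 kb had at least 13 pooled ones.

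The windows of these 2 intronic summits of fkh-7 are given as above, on the plus strand, with the forkhead core in capitals.
fkh-7, 20075 bp downstream (chrIV:5604709-5604809): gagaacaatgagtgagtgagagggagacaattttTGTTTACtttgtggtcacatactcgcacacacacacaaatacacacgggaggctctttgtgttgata
fkh-7, 8408 bp downstream (chrIV:5593042-5593142): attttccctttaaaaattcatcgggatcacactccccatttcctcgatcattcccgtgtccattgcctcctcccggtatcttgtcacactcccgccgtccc
The thresholded summit held the core GTAAACA on the minus strand, printed as its reverse complement, and the weaker summit held none. The window is centred on the pooled summit. The matching summits of replicate 1 and replicate 2 lay 112 bp and 63 bp from it, beyond the 50 bp searched on either side.

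The genes unc-130 and fkh-8 each held 1 pooled region with a signal above 15 and no thresholded summit. At unc-130 (WBGene00006853, chromosome II, 11281966 to 11283959, plus strand), which encodes a FoxD factor that guides cell migration and neuronal fate, the strongest region lay 2339 bp upstream of the 5' end. It had a signal of 16.2 in replicate 1, 5.01 in replicate 2 and 18.2 in the pooled list. The replicates differed widely here, with rank 2278 in replicate 1 and 17125 in replicate 2. At fkh-8 (WBGene00001440, chromosome II, 6189623 to 6191393, minus strand) the only pooled summit lay in the last part of the gene, in a coding exon 1664 bp downstream of the 5' end, with signals of 9.69 in replicate 1, 8.45 in replicate 2 and 18.4 in the pooled list. Its ranks were 6554, 5023 and 3838. The G and C content of the window of this unc-130 region was 54.5%. The median was 35.6% over all pooled windows and 43.6% over all thresholded windows. The other pooled windows of unc-130 held 53.5% to 55.4%, so the content was not particular to this region. The window (chrII:11279577-11279677, plus strand) is shown for this content, with no motif in capitals since none matched.
unc-130, 2339 bp upstream: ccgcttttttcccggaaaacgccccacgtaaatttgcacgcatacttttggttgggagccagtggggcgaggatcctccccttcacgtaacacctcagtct

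**Figure D4:**
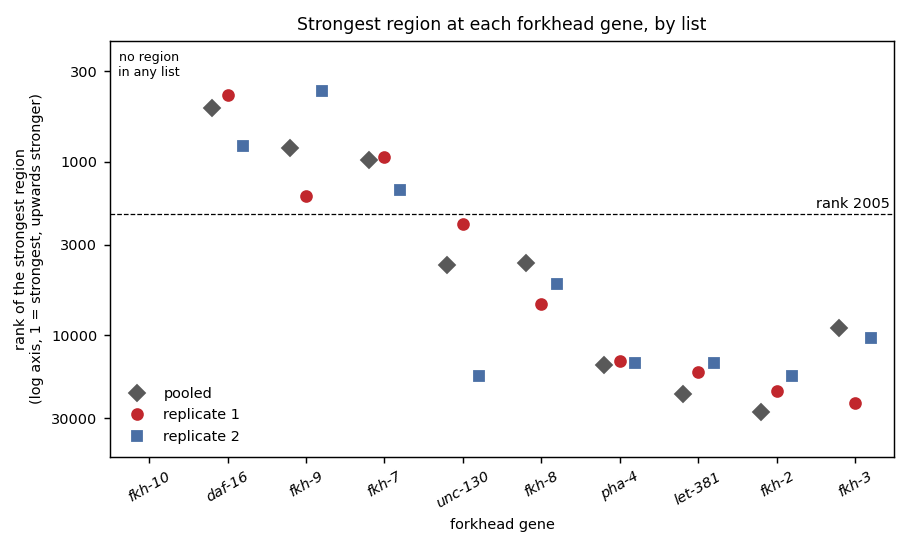
Rank of the strongest region in the window of each forkhead gene in the pooled list, replicate 1 and replicate 2 (log axis, stronger upwards), with rank 2005 as a dashed line. At daf-16, fkh-9 and fkh-7 all 3 ranks lie above the line, at unc-130 replicate 1 (2278) and replicate 2 (17125) lie far apart, and fkh-10 has no region in any list.

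At pha-4, let-381, fkh-2 and fkh-3 the pooled signals lay between 6.94 and 12.2, with 10 of the 12 regions below the pooled median of 9.89. At pha-4 (WBGene00004013, chromosome V, 20753052 to 20760317) 7 pooled summits lay between 3086 bp upstream and 7053 bp downstream of the 5' end, with signals from 6.94 to 9.93. Of these regions 4 were overlapped in replicate 1 alone, 2 in replicate 2 alone, 1 in neither and 0 in both, beside 36.8% in both over all pooled regions. Of all genes 7.53% had as many pooled summits per kb of window as pha-4. At let-381 (WBGene00002601, chromosome I, 6320289 to 6324019), which encodes a FoxF factor of the mesoderm, both pooled summits lay nearer to the start of F26B1.1, with signals of 8.27 and 8.24. A strong peak, of signal 65.0 and rank 293, lay 6125 bp downstream of the let-381 5' end, outside the window, in an intron of hrpk-1, the gene whose start was nearest. At fkh-2 (WBGene00001434, chromosome X, 3740207 to 3742323), which acts in the cilia of AWB sensory neurons, the only pooled summit had a signal of 7.26 and was overlapped in neither replicate.

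The gene fkh-3 (WBGene00001435, chromosome X, 13421822 to 13423440) lies beside its near copy fkh-4, and the 2 proteins are identical at 411 of 421 aligned residues. Of the 50-base words of the fkh-3 gene only 50.9% occurred once in the genome, against at least 99.9% in the other 9 genes. How reads with several possible places were treated is not given in the sources used here, so a low signal inside fkh-3 cannot be read as a lack of binding. Of its 2 pooled summits, 1 lay 907 bp upstream with a signal of 8.47 and was overlapped in neither replicate, and that summit also fell in the window of fkh-4. The other, with a signal of 12.2, lay 4934 bp downstream of the 5' end, just inside the limit of 5 kb and nearer to C29F7.3.

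Each of the 6 thresholded regions was overlapped by a region in both replicates, as were 99.2% of all thresholded peaks. That list was derived from both replicates and held the 2005 strongest pooled regions, so a match is no independent support. With a replicate summit required within 100 bp, 5 of the 6 were met in both replicates. The fkh-7 peak was not, its replicate 1 summit lying 112 bp away. Over the 60 pooled regions of the family 26 were overlapped in both, 15 in replicate 1 alone, 12 in replicate 2 alone and 7 in neither, against 36.8% overlapped in both over all pooled regions. No other protein-coding gene had its 5' end within 5 kb of any of the 6 summits or spanned one. The 5' end nearest to the summit was that of the forkhead gene itself at 5 of the 6. At the deep intronic summit of fkh-7 it was that of C39H7.4, 9849 bp away.

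The forkhead core was present at 2 of the 6 thresholded summits. The core was looked for on both strands, up to 50 bp from a summit, as ATAAACA and its variant form ATAAATA, or with a first G as GTAAACA and its variant form GTAAATA, and 5.54% of all thresholded windows held it. With up to 100 bp from a summit the count stayed at 2, while the share of all thresholded windows was 12.2%. The 4 forms exclude each other at a given position of a strand. Both matches, at the upstream peak of daf-16 and the deep intronic peak of fkh-7, were GTAAACA, a form held by 1.35% of all thresholded windows and singled out after the matches were seen. Over the 60 pooled windows of the family 3 held a core, against 9.39% of all pooled windows. The third was again GTAAACA, at the weak region 782 bp upstream of fkh-7. This form was common around fkh-7, with 14 matches in its 30.7 kb, against 11971 in the 100273 kb of the nuclear chromosomes. These counts rest on few windows, all centred on pooled summits, and a match to the letters is not a bound site. The 6 thresholded windows had a median G and C content of 42.1%, against 43.6% over all thresholded windows.

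The other 5 listed forkhead genes held no thresholded summit. These are fkh-4, fkh-5, fkh-6, lin-31 and pes-1, and each had between 1 and 3 pooled summits with a strongest signal between 8.47 at fkh-4 and 12.3 at fkh-6. Only 54.5% of the words of the fkh-4 gene were unique, so its low signal is limited in the same way as that of fkh-3. In the insulin pathway that acts upstream of DAF-16, 5 of 15 listed genes held a thresholded summit, again beside 15.6% of all genes. The genes were listed with earlier results of these data known, and the shares were not matched for window length. The daf-2 window measured 51.3 kb, and 38.5% of all genes with windows over 45 and up to 60 kb held a thresholded summit. The windows of pdk-1, akt-1, ftt-2 and par-5 were of 12 kb or less, where 14.2% of all genes did. An excess in the pathway was not tested. The receptor gene daf-2 had its thresholded summit in an intron, 4695 bp from its 5' end. The signal there was 19.9 in replicate 1, 16.3 in replicate 2 and 34.7 in the pooled list. The kinase genes pdk-1 and akt-1 had pooled signals of 57.7 and 44.6, with 34.8 and 34.3 in replicate 1 and 19.9 and 14.7 in replicate 2. The 14-3-3 genes ftt-2 and par-5, whose proteins retain DAF-16 in the cytoplasm, had pooled signals of 37.6 and 46.7, with 16.8 and 24.3 in replicate 1 and 23.9 and 22.8 in replicate 2. The summits at akt-1, ftt-2 and par-5 lay between genes, those at daf-2 and pdk-1 in introns. The other 10 genes, among them age-1, daf-18, akt-2 and sgk-1, had none, with strongest pooled signals between 7.63 at ins-7 and 18.6 at akt-2.

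Genes with a like signal were found by the strongest region in each of the 4 lists, compared on the log2 scale by Euclidean distance among 3114 genes with a summit in all 4. Nearest to daf-16 were W08E3.4 and casc-3, which share a peak, at a distance of 0.065. Nearest to fkh-9 were madf-5 (0.063) and cpr-1 (0.095), and nearest to fkh-7 were lim-4 (0.041) and F55C10.5 (0.058). The measure rests on 2 libraries and on lists made from both, and it says only that the signals were alike. In genes with a thresholded summit the strongest thresholded and pooled signals are the same value, which therefore counts 2 times. The strongest region can also be a different peak in different lists. At fkh-9 it was the intronic peak in replicate 1 and the proximal upstream peak in the other lists.

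The family is otherwise diverse. Among the 45 pairs of the 10 proteins, translated from the longest RefSeq coding sequence of each gene, identity over globally aligned residues ran from 24.0% to 42.7% with a median of 32.3%. FKH-10, at 194 residues the shortest, was 42.3% identical to DAF-16, 41.4% to FKH-9 and 36.3% to FKH-7, whose genes held thresholded summits. For the members whose genes held none, identity was 42.7% to LET-381, 41.6% to UNC-130 and 40.7% to PHA-4. It was 39.2% to FKH-2 and 32.5% to both FKH-3 and FKH-8. Local alignments with FKH-10, over 59 to 135 residues, gave another order. They ran from 37.3% for FKH-3 to 52.1% for FKH-2, with 48.3% for DAF-16. The ranges of members with and without a thresholded summit overlapped in both kinds of alignment.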

How the data were processed

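The deposited narrowPeak files cover ce11 and ce10, per the deposited file descriptions. All results rest on ce11, apart from the stretch lengths given for ce10. Per the deposited file descriptions, candidate regions were called for each replicate and for the pool against a control alignment, and the thresholded list was derived from these 3 lists by the irreproducible discovery rate. The authors deposited a signal value for each region, used here to rank and describe regions, and the −log10 of a q-value, between 3.04 and 3.52 for thresholded peaks and not used further. Aligner, caller, threshold and read numbers were not given in the sources used here, so the precision behind each signal is unknown. Genes came from Ensembl release 115 on WBcel235. No ce11 region passed a chromosome's end there. Regions were matched between lists by an overlap of 1 bp or more, so that 1 replicate region could match several pooled regions.

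The genes and lists were chosen with earlier results of these data known. No test was made, since the series holds 1 group. Named were the 10 genes, the listed genes with a thresholded summit, genes sharing those summits, the 2 genes of most like signal for each, and the neighbours of fkh-10; genes named otherwise were chosen after their values were seen. Alternatives were other windows, single replicates, the 1002 strongest thresholded peaks, replicate summits within 100 bp and a wider motif window. Counting of windows and motifs was tested on simulated data. Python 3.11.15, numpy 2.4.6, pandas 2.3.3, scipy 1.17.1 and Biopython 1.88 were used (BLOSUM62, gap costs 11 and 1).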

Additional observations from a re-analysis of the deposited data

How the results depend on the processing

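Of 38 alternatives, 36 gave a value within 1.5 times that reported, a rule that leaves out the share of all genes beside each count. The number of thresholded summits at the genes fell to 3, against 6, with the gene body alone and with the 1002 strongest thresholded peaks, in each case 1 at daf-16, fkh-9 and fkh-7. Leaving out a replicate gave 3 to 3 genes with 4 to 7 strong summits, 9 to 9 genes with 55 to 55 weaker summits, and 55930 to 64325 bp for the stretch around fkh-10. With 10 kb in place of 5 kb let-381 became the fourth gene, while the share of all genes grew to 26.0%. With each summit given to the nearest 5' end alone fkh-7 lost its summit, leaving 2 genes against 7.44% of all. The number of genes stayed at 3 with 1 kb in place of 5 kb, against 7.08% of all genes. It also stayed at 3 with the gene body alone, against 2.56% of all, a share below the interval given for 5 kb. None of these shares was matched for gene length. No paired analysis was possible because the series holds 1 group and no test. Identity and uniqueness had no alternative among the 38. The unknown depth limits all signals.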

Other observations

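Matches to the forkhead core were not fewest where summits were missing. The window of fkh-10 held 17 matches to the 4 forms in 10.001 kb, 1.70 per kb, against 1.13 per kb over the 6 nuclear chromosomes, and fkh-7 had the most at 1.99 per kb, 14 of its 61 being GTAAACA. The window of daf-16, which held the most summits, had 0.77 per kb. These are letters in the reference sequence, and no relation to signal was tested.

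On build ce10, for which no annotation was used, chromosome I held a single stretch without pooled summits of about the length seen around fkh-10. It measured 59142 bp, with signals of 10.2 and 11.5 at its edges. In the ce10 lists of replicate 1 and replicate 2 the longest stretches of chromosome I were 55938 bp and 64325 bp. Between builds only lengths and signals were compared, since positions were not converted.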
